A study of Rattus norvegicus with 9 samples.

Results

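Goblet cells are the mucus-secreting cells of the intestinal epithelium, and 10 genes of their secretory programme are described here: Muc2, Zg16, Clca1, Fcgbp, Tff3, Spink4, Agr2, Spdef, Retnlb and Muc13. They were chosen by symbol from 17120 genes in a pair of deposited tables. Rows were found for 8 of the 10 in both tables, and 7 of the 8 reached a mean of 1 FPKM in both and were tested. The exception is Retnlb, which is given by its values. Muc2 and Muc13 are not analysed here. Every sample was labelled ileum, the distal stretch of the small bowel. The rats were Otsuka Long-Evans Tokushima fatty animals, which lack a functional cholecystokinin A receptor and grow obese and diabetic. The 3 groups of 3 samples were ileum after a sham operation, ileum after Roux-en-Y gastric bypass (RYGB) labelled FDG decreased, and ileum after RYGB labelled FDG increased. RYGB joins a small stomach pouch to the jejunum, so that food does not pass through the duodenum and the larger part of the stomach. The samples of all 3 groups are dated to month 1, which for the RYGB tissue is 1 month after the operation. The labels give no age or sex, and do not spell out FDG, taken here as the glucose tracer fluorodeoxyglucose. Its stated aim was to find the effects of RYGB on this organ.

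The mucus of the gut is a gel built on the mucin Muc2, which goblet cells fold in the endoplasmic reticulum, coat with sugar chains in the Golgi, pack into granules and release. Other proteins of the same granules join the gel: Zg16 is a lectin that binds bacterial cell walls, Clca1 a metalloprotease that processes mucus, Fcgbp a large protein that is bound to the mucin network, and Tff3 a trefoil peptide that acts in repair of the epithelium. Agr2 is a protein disulfide isomerase needed to fold Muc2, and Spdef is a transcription factor of goblet cell maturation. In the small intestine the gel is loose and thin, and goblet cells stand among many more absorptive enterocytes. Fewer goblet cells and less RNA per goblet cell cannot be told apart in bulk tissue.

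The values are FPKM, in which fragments are divided by transcript length and by library size, so levels may be compared between genes. One table, called the sham table below, sets FDG-increased RYGB ileum against sham ileum. The other, called the RYGB table, compares FDG-decreased with FDG-increased ileum after RYGB. The tables were scaled separately and tests were run only within a table. FDG-increased columns 2 and 3 of the sham table are the same libraries as columns 1 and 2 of the RYGB table, with at least 99.9407% of genes above 0 within 1% of a fixed factor. The remaining FDG-increased column differs, so there are 4 distinct FDG-increased libraries against 3 in the labels, and 10 distinct libraries in all. The comparisons thus share FDG-increased libraries, and their values are set side by side without being counted as separate support. Whether each replicate was a separate animal is not stated in the labels, and the p-values reflect only the spread between these samples, which may be technical. Read depth is unknown. The sum of FPKM per library was 465697 to 864511.

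Some libraries stood apart. The library labelled sham replicate 1 held 22.6 FPKM of Fabp6, the bile acid binding protein of the ileum, against 8375 and 11347 in the other sham libraries. It also held 253 FPKM of Lct, the lactase of the upper small intestine, against 8.60 and 0.317. Sham replicate 2 held 441 FPKM summed over 4 adipocyte markers, against 50.9 and 140 in sham replicates 1 and 3. Both libraries numbered 3 of the RYGB table held few immune transcripts, with 9.40 and 12.1 FPKM summed over 5 immune markers against 89.0 to 149.9 in the other RYGB libraries. For some genes, results are therefore also given without these libraries. Of the stomach markers, Tff1 and Gkn1 were listed at 0 in every column. The defining markers of goblet cells were abundant in each library: Zg16, Clca1 and Tff3 were the 3 highest of the measured goblet cell genes in all 12 columns, and together the 8 genes made up 0.549% to 1.95% of all FPKM.

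Promoter sequence was matched for 9 of the 10 genes by symbol in RefSeq's rat promoter windows on GRCr8, with 250 bases before and 50 after each start. The entry not found is Zg16. The 250 bases before the start are shown for Clca1, Tff3 and Agr2, the 3 genes whose levels moved most alike over the libraries (described further on). Capitals mark matches on either strand to the TATA sequence TATAAA or its variant TATATA, to the E-box sequence CAGCTG or its variant CAGATG, to the forkhead sequence TGTTTAC or its variant TGTTTGC, or to CACCC, and overlapping matches are joined. Each is printed 5′ to 3′ on the strand of the gene: Clca1 at chr2:236624715-236624964 (minus strand), Tff3 at chr20:9199334-9199583 (minus strand) and Agr2 at chr6:58435658-58435907 (plus strand).
Clca1: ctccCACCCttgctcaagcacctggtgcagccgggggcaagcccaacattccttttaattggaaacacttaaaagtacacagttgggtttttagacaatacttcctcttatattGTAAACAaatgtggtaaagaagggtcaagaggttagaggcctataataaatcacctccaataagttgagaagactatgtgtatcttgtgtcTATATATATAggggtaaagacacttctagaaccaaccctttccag
Tff3: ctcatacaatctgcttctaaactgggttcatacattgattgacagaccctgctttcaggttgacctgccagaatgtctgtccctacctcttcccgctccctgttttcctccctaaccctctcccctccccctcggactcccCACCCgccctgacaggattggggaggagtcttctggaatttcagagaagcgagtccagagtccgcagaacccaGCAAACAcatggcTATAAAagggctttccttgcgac
Agr2: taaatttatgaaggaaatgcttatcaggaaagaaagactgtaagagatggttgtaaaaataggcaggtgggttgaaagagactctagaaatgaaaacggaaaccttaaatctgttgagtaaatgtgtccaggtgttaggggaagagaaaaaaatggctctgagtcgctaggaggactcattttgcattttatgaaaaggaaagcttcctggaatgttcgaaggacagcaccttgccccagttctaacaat
These stretches share no searched motif across all 3 genes. Clca1 has 3 overlapping matches to TATATA, the first at -45 from the start site, and 1 match to the forkhead sequence TGTTTAC at -136. Tff3 has TATAAA at -23 and the forkhead sequence TGTTTGC at -36. Agr2 has 0 matches. Of 33469 windows of 300 bases in the same table, 14.2% hold TATAAA, 6.15% TATATA, 3.78% TGTTTAC, 4.88% TGTTTGC, 15.1% CAGCTG, 16.6% CAGATG and 54.9% CACCC. Of the 9 matched genes, TATAAA is in 2, TATATA in 4, CAGCTG in 2, CAGATG in 0, TGTTTAC and TGTTTGC in 1 each and CACCC in 7. A match is a match of letters only.

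FDG-increased RYGB ileum against sham ileum was compared first. Zg16 was the one of 7 tested goblet cell genes whose groups did not overlap with FDG-increased higher, which is so for 10.7% of all genes. It stood at 3271 ± 337 FPKM in FDG-increased ileum against 1288 ± 699 in sham ileum (SD, n = 3 each), a ratio of means of 2.54. None of the 7 tested genes passed the adjusted threshold. Clca1, Tff3 and Agr2 had higher means in FDG-increased ileum with overlapping groups, and Fcgbp and Spdef differed little beside their spread.

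Zg16 stood at 3030.03, 3127 and 3655 FPKM in the FDG-increased libraries. In sham ileum it stood at 2058, 1111 and 694 FPKM. Every FDG-increased library lay above every sham library, and the library labelled sham replicate 1 was the closest. The FDG-increased library outside this table, put on its scale, held 1619 FPKM, inside the sham range. On the log2(FPKM + 1) scale, which understates changes of low genes, limma gave a difference of 1.48 (SE 0.419), with an unadjusted p of 0.00638 and a Benjamini-Hochberg adjusted p of 0.472. Without sham replicate 1 the difference was 1.89 with a limma adjusted p of 0.308, and over the 6 fits that each left out 1 library it lay between 1.11 and 1.89. All sham libraries came from sequencing lane 7, and against the 1 FDG-increased library known to be from that lane the difference was 1.42. The shared libraries carry other numbers in the RYGB table. With sham libraries 1 and 2 paired by those numbers and the remaining libraries paired with each other, an alternative chosen after seeing the data, Zg16, Clca1 and Agr2 were higher in the FDG-increased library of all 3 pairs, as were 23.9% of all genes. In pair 1 the values were close for Clca1 (1238 against 1237 FPKM) and for Agr2 (722 against 715). With these pairs as a replicate block the limma adjusted p of Zg16 was 0.00399, in a fit that called 498 genes (4.61%) and took the spread of 10600 of 10801 genes from all genes together. With limma run without the trend and robust variances on the same pairs, each gene kept a weight for its own spread, 85 genes were called, and the adjusted p of Zg16 was 0.0511. The limma adjusted p over the 15 alternatives ranged from 0.00399 to 0.99990.

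**Figure D1:**
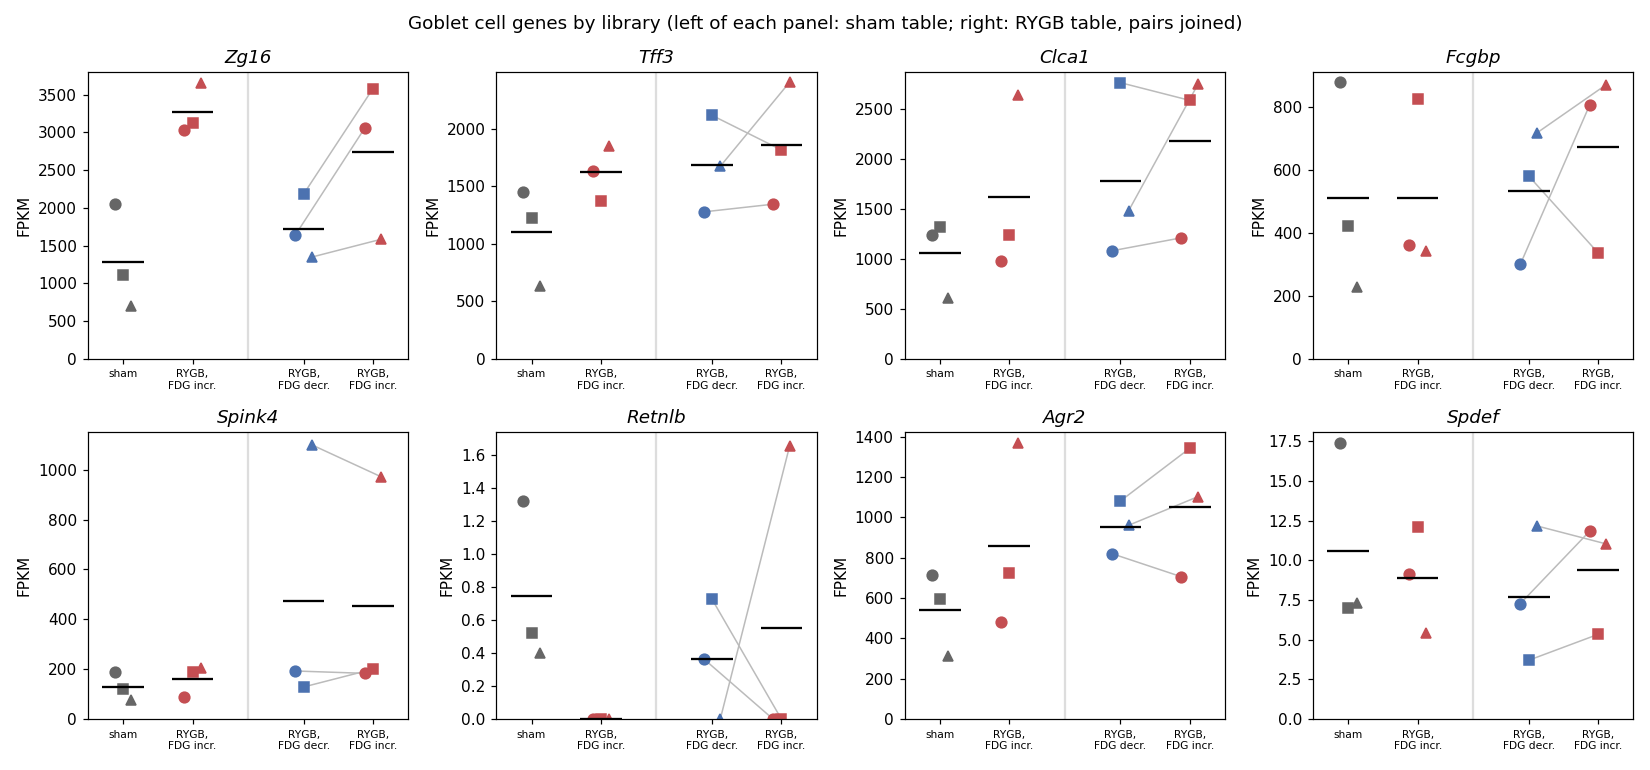
FPKM of the 8 measured goblet cell genes in each library, 1 panel a gene, with sham and FDG-increased columns of the sham table on the left and FDG-decreased and FDG-increased columns of the RYGB table on the right. Circles, squares and triangles are libraries 1, 2 and 3, black bars are group means, and grey lines join libraries of the same number in the RYGB table; Zg16 is higher in all FDG-increased than in all sham libraries of the sham table, and Spink4 is far higher in both libraries numbered 3 of the RYGB table.

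Tff3 stood at 1638, 1377 and 1855 FPKM in FDG-increased ileum and at 1450.45, 1228 and 634 in sham ileum. Only sham replicate 3 lay clearly below the rest. The log2 difference was 0.63 (SE 0.384) with a limma adjusted p of 0.741. Clca1 was more scattered, with 977, 1238 and 2638 FPKM in FDG-increased ileum and 1237, 1321 and 607 in sham ileum. FDG-increased library 3 stood above all others, while the remaining FDG-increased libraries lay inside the sham range. The log2 difference was 0.56 (SE 0.471) with a limma adjusted p of 0.810. Fcgbp showed almost equal means, 510.3 ± 274 against 510.9 ± 334 FPKM (SD, n = 3 each), with 361, 826 and 344 FPKM in FDG-increased ileum and 879.9, 424 and 229 in sham ileum. One library of each group held more than the others.

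Spink4, a small secreted peptide of the serine protease inhibitor family found in goblet cells, stood at 89.8, 188 and 204 FPKM in FDG-increased ileum. Its sham values of 188, 120.4 and 75.5 FPKM covered nearly the same range. Retnlb, a secreted protein of goblet cells that acts on bacteria, was listed at 0 in all 3 FDG-increased columns of this table and at 1.32, 0.523 and 0.399 FPKM in sham ileum. These levels lie near the bottom of what FPKM resolves, no fold is given, and FDG-increased library 3 of the RYGB table held 1.65 FPKM.

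Of the genes that act before secretion, Agr2 stood at 480.4, 722 and 1369.8 FPKM in FDG-increased ileum against 715, 593 and 311 in sham ileum. The groups overlapped, and the log2 difference was 0.62 (SE 0.476) with a limma adjusted p of 0.794. Spdef, the least abundant of the 7, stood at 9.12, 12.1 and 5.44 FPKM against 17.4, 7.02 and 7.33. Sham replicate 1 was the highest and the log2 difference of -0.17 (SE 0.392) became 0.22 without it.

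By limma 0 of the 7 tested goblet cell genes passed an adjusted p of 0.05, beside 0.037% of all 10801 genes (4 genes). At an unadjusted p under 0.05 the count was 1 of 7, Zg16, beside 7.84% of all genes. Non-overlapping groups with FDG-increased higher were seen for 1 of 7 and for 10.7% of all genes. The median difference was 0.56 over the 7 genes and 0.13 over all genes, and 6 of 7 lay above 0 beside 64.7% of all genes. With each library shifted to the same median the values became 1.35 for Zg16, 0.50 for Tff3, 0.49 for Agr2, 0.43 for Clca1, 0.20 for Spink4, -0.04 for Fcgbp and -0.30 for Spdef. Quantile normalization left Zg16 at 0.60 and Agr2 at 0.17, and turned Fcgbp (-0.41), Clca1 (-0.13), Tff3 (-0.06) and Spink4 (-0.04) below 0. The scaling also moved the balance over all genes: at an unadjusted p under 0.05, 664 were higher and 183 lower as deposited, 528 and 368 after the median shift, and 479 and 333 after quantile normalization. The direction of Fcgbp, Clca1, Tff3 and Spink4 in this comparison thus depends on the scaling.

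Marker sums of other cell types also differed, with 0 of these markers past the adjusted limma threshold. Summed over the Paneth cell markers, antimicrobial products of the crypt base, FPKM ranged from 23743 to 36122 in FDG-increased ileum and from 9003 to 21323 in sham ileum, with 6 of 6 tested markers above 0. The immune sum was 74.6 to 153 against 31.8 to 55.9, with 4 of 4 tested markers above 0. The upper intestine sum was 0.737 to 3.69 against 4.10 to 394. The enteroendocrine sum was 293 to 519 against 136 to 156, with 5 of 6 tested markers above 0 and a median of 1.03. The ileum sum was 17081 to 24454 against 175 to 11824, with 3 of 3 above 0, and its lowest value was that of sham replicate 1. The adipocyte sums overlapped, at 58.7 to 103 and 50.9 to 441. Plin1 reached the level filter only through sham ileum (mean 0.297 against 3.23 FPKM), so these markers are not counted. Stem cell markers lay below 0 in 4 of 4 with a median of -0.29. The enterocyte sums, 5740.03 to 9894 against 3940.02 to 13454, overlapped, as did those of tuft cell, stem cell, smooth muscle and colon markers. The part of these in the Zg16 difference was not tested.

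**Figure D2:**
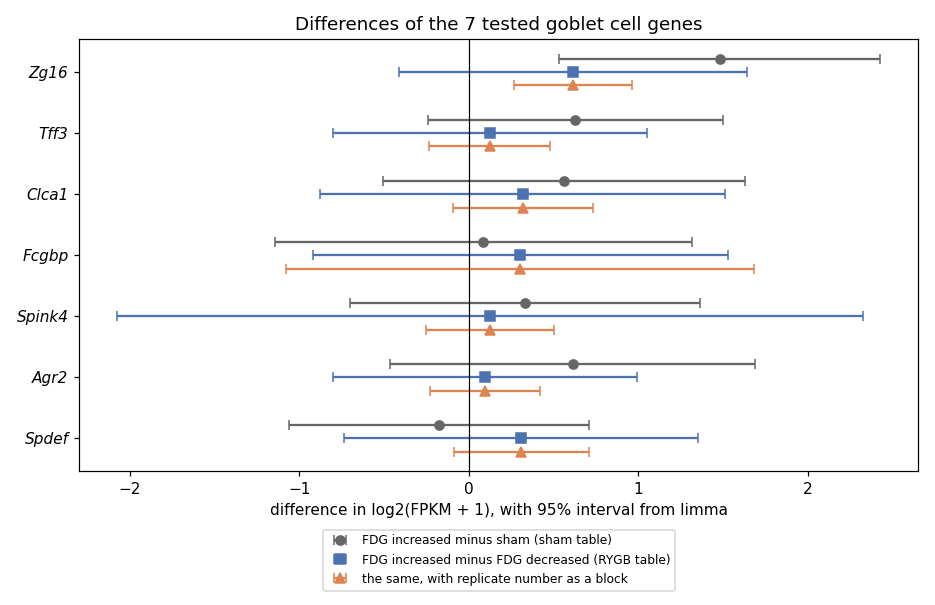
Differences in log2(FPKM + 1) of the 7 tested goblet cell genes with 95% intervals from limma: FDG increased minus sham (grey circles), FDG increased minus FDG decreased (blue squares), and the latter with the replicate number as a block (orange triangles). The unblocked intervals cross 0 except that of Zg16 against sham, and the blocked intervals cross 0 except that of Zg16.

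Within RYGB ileum, FDG-increased and FDG-decreased samples were not clearly separated for most of these genes, which does not show equal levels. Zg16 again had the largest difference. Zg16 stood at 2741 ± 1035 FPKM in FDG-increased and 1723 ± 423 in FDG-decreased ileum (SD, n = 3 each). It was higher in the FDG-increased library of each of the 3 same-numbered pairs, which is so for 12.7% of all genes. None of the 7 genes passed the adjusted threshold.

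Zg16 stood at 1639, 2183 and 1349 FPKM in FDG-decreased libraries 1, 2 and 3. In FDG-increased libraries 1, 2 and 3 it stood at 3056, 3582 and 1585 FPKM. Library 3 was the lowest of its group on both sides, so the groups overlapped while the pairs pointed one way, with ratios of 1.87, 1.64 and 1.18. Pairs 1 and 2 were each sequenced in 1 lane, so those ratios are within a lane. The log2 difference was 0.62 (SE 0.441) with a limma adjusted p of 1, and with the replicate number as a block limma gave an SE of 0.157, an unadjusted p of 0.00259 and an adjusted p of 0.120. Without both libraries numbered 3, an alternative chosen after seeing the data, the difference was 0.81, with a limma adjusted p of 0.99992 without the block and 0.00336 with it. That blocked fit, on 2 pairs, called 346 genes and took the spread of 10732 of 10804 genes from all genes together. Without the trend and robust variances it called 193 genes, with an adjusted p of 0.0446 for Zg16. Over the 15 alternatives of Zg16 the limma adjusted p ranged from 0.00336 to 1.

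The other proteins of the mucus gel were less uniform over the pairs. Tff3 stood at 1279, 2119 and 1676 FPKM in FDG-decreased and 1346, 1818 and 2409 in FDG-increased ileum, with a log2 difference of 0.13 (SE 0.399). Clca1 stood at 1080.5, 2762 and 1481 FPKM in FDG-decreased and 1210.3, 2585 and 2748 in FDG-increased ileum, and its difference of 0.32 (SE 0.513) came mostly from pair 3, with a ratio of 1.86. For both genes FDG-increased was higher in 2 of 3 pairs, and without both libraries numbered 3 the differences were -0.07 for Tff3 and 0.03 for Clca1. Fcgbp stood at 301, 581 and 719 FPKM against 808, 337 and 872. Its pairs disagreed most, with ratios of 2.69, 0.579 and 1.21.

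Spink4 varied by pair number far more than by group. It stood at 193, 129 and 1099.9 FPKM in FDG-decreased libraries 1, 2 and 3, and at 183, 200.2 and 972 in the FDG-increased ones. Both libraries numbered 3 held several times the level of all others, and the pair means spanned 2.68 on the log2 scale, a wider span than in 98.9% of the genes tested. The largest difference within a pair was 0.63. Of the 7 goblet cell genes, 6 varied more between the pair means than within any pair, as did 79.6% of all genes. Retnlb was listed at 0.365, 0.726 and 0 FPKM in FDG-decreased and at 0, 0 and 1.65 in FDG-increased ileum.

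Agr2 varied less than most of the 7 here, its highest value being 1.90 times its lowest. It stood at 819.9, 1081 and 961 FPKM in FDG-decreased and 706, 1342 and 1103 in FDG-increased ileum. Its log2 difference was 0.10 with a 95% interval from -0.80 to 1.00 in the limma fit without the block. That fit leaves the pairing out: over the 7 genes the median SE was 0.449 without the block and 0.170 with it. Spdef stood at 7.28, 3.70 and 12.2 FPKM against 11.8, 5.33 and 11.0. The difference of 0.31 (SE 0.449) rested on pairs 1 and 2, and in both groups library 2 was the lowest.

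By limma 0 of the 7 goblet cell genes were called at an adjusted p under 0.05, beside 0% of all 10739 genes, and 0 of 7 had an unadjusted p under 0.05, beside 1.02% (110 genes). With the replicate block the count of called genes was 0 of 7 beside 1.14% of all (122 genes), and 1 of 7, Zg16, had an unadjusted p under 0.05 beside 9.52%. The median difference was 0.31 over the 7 genes and -0.02 over all genes, and 7 of 7 lay above 0 beside 44.8% of all genes. Tff3, Spink4, Agr2, Fcgbp and Spdef each lay on the other side of 0 when 1 library was left out, whereas Zg16 (0.38 to 0.97) and Clca1 (0.02 to 0.70) did not. Enterocyte markers lay the other way: 6 of 6 tested were below 0, and their sum was 2622 to 9697 FPKM in FDG-increased and 4848 to 16726 in FDG-decreased ileum. The upper intestine sums were 0.720 to 2.94 against 12.3 to 40.8 FPKM, given as a description. Lct (mean 0.444 against 4.72 FPKM) and Gata4 (0.210 against 11.2) reached the level filter only through FDG-decreased ileum, so these markers are not counted. Tuft cell markers lay below 0 in 4 of 4 and ileum markers above 0 in 3 of 3, with overlapping sums. The adipocyte sums overlapped as well. Adipoq reached the filter only through FDG-increased ileum (mean 3.03 against 0.165 FPKM), mainly by library 1 at 8.69 FPKM, so adipocyte markers are not counted. The part of these cell types in the goblet cell values was not tested.

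The levels of the 3 groups were set on one scale with the factor 1.0217 from the shared libraries, as a description with no test, since the tables were scaled separately. Zg16 ran from 1288 ± 699 FPKM in sham (n = 3) over 1761 ± 433 in FDG-decreased (n = 3) to 2858 ± 870 in FDG-increased ileum (SD, n = 4 distinct libraries). Sham and FDG-decreased did not differ beyond their spread, and the range of FDG-decreased, 1378 to 2229.98, overlapped that of FDG-increased, 1619 to 3655. Tff3 averaged 1104 in sham, 1728 in FDG-decreased and 1833 in FDG-increased ileum, and Agr2 539.7, 974.6 and 924.7 in the same order. For these the order of the RYGB groups was within their spread. Clca1 averaged 1055, 1813 and 1915 FPKM, and Fcgbp 511, 545 and 605, with SDs of 218 to 941 over both genes. Spink4 averaged 128, 484 and 369 and Spdef 10.6, 7.88 and 9.48, and the spread within groups exceeded these differences. Over the 10 libraries the highest value was 14.9 times the lowest for Spink4 and 3.88 to 5.27 times for the other 6.

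Relative to Tff3 in the same library, the ratio of Zg16 did not overlap between the groups of the sham table, as its FPKM did not. Those of the other 5 tested genes overlapped. The share of all genes whose ratio does not overlap was not computed, so this is a description. The Zg16 ratio was 1.85, 2.27 and 1.97 in FDG-increased libraries and 1.42, 0.905 and 1.10 in sham libraries. Within RYGB ileum it was 1.28, 1.03 and 0.805 in FDG-decreased and 2.27, 1.97 and 0.658 in FDG-increased libraries. The FDG-increased library numbered 3 there was the lowest of all 12 columns. The Agr2 ratio was 0.483 to 0.493 in the sham libraries and 0.293 to 0.738 in the FDG-increased columns beside them, and the Clca1 ratio was 0.853 to 1.08 and 0.597 to 1.42. Those sham ranges lay inside the FDG-increased ranges.

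**Figure D3:**
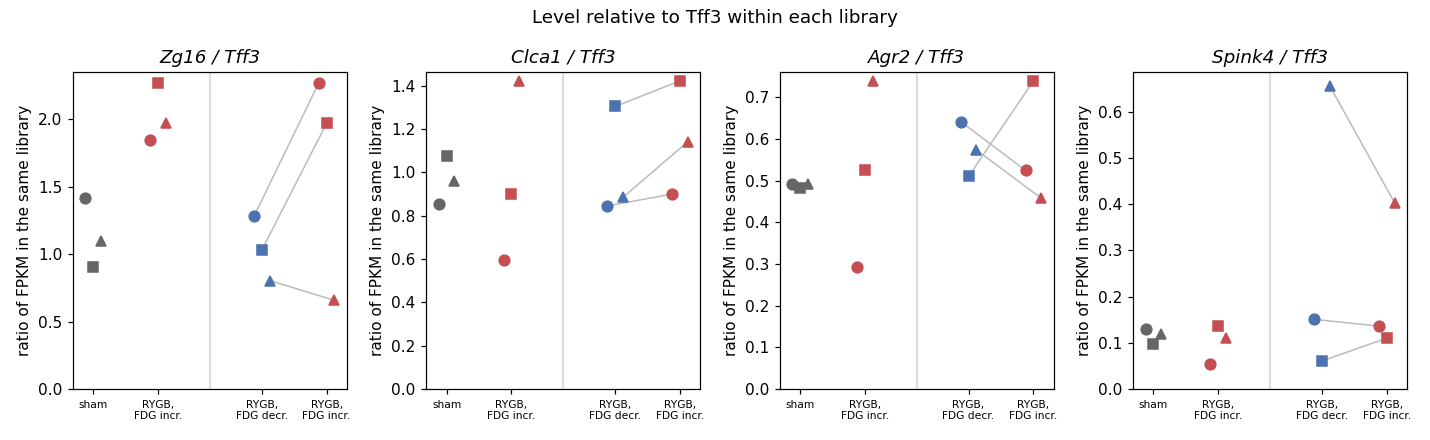
Ratio of the FPKM of Zg16, Clca1, Agr2 and Spink4 to that of Tff3 in the same library, with the sham table on the left and the RYGB table on the right of each panel, and same-numbered RYGB libraries joined. Symbols are library numbers 1 (circle), 2 (square) and 3 (triangle); the Zg16 ratio is 1.85 or more in FDG-increased and 1.42 or less in sham columns on the left, but 0.658 in FDG-increased library 3 of the RYGB table.

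The genes were compared in pattern over the 12 columns, each centred on its table, by the mean absolute difference of log2(FPKM + 1). The rule had named Muc2 as the reference, so the nearest genes of each measured member were taken in its place, after the files were seen. The closest members were Clca1 and Agr2 at 0.20, Tff3 and Agr2 at 0.22, and Clca1 and Tff3 at 0.28. Zg16 and Spink4 were the farthest apart at 1.03. Among 10652 other genes, Zg16 was nearest to Klk8 (0.21), Net1 (0.27) and Bcas1 (0.27), where the median gene lay at 0.61. Agr2 was nearest to Rab27a (0.15), a small GTPase of granule secretion, and to Il18 (0.16) and Serpinb1a (0.18). Tff3 was nearest to Fxyd3 (0.15), Fmc1 (0.15) and Ssr2 (0.16), the last a part of the translocon complex of the endoplasmic reticulum. Fcgbp was nearest to Ybx1-ps3 (0.33), Ern2 (0.34) and Ano7 (0.34), Spdef to Mif (0.17), Pmepa1 (0.19) and Ano7 (0.20), Clca1 to Rnf11l1, Cpeb4 and Kpna1 (0.17 each), and Spink4 to St3gal4 (0.37), Gsdmc (0.43) and St6galnac6 (0.47). The columns share libraries, and these distances are a description.

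The regulators of goblet cell fate were read from a list of 15 genes, 14 of them tested. None passed the adjusted limma threshold in either comparison. Against sham ileum 11 of 14 lay above 0 with a median of 0.25, beside 0.13 over all genes, and 3 of 14 had an unadjusted limma p under 0.05, all higher, beside 6.15% of all genes. Atoh1, the transcription factor that commits cells to the secretory lineage, stood at 38.0, 54.6 and 48.4 FPKM in FDG-increased ileum and at 31.0, 20.8 and 18.2 in sham ileum. The groups did not overlap, as for 10.7% of all genes with FDG-increased higher. The log2 difference was 1.00 (SE 0.308) with a limma adjusted p of 0.511. The FDG-increased library outside this table held 25.5 FPKM of Atoh1 on the scale of the RYGB table, inside the sham range. Klf4, a transcription factor of goblet cell differentiation, stood at 73.1, 136 and 106 FPKM against 79.2, 39.9 and 52.2, a difference of 0.88 with a limma adjusted p of 0.628.

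Within RYGB ileum Klf4 stood at 75.4, 58.4 and 65.7 FPKM in FDG-decreased and 133, 103.5 and 103.4 in FDG-increased ileum. The groups did not overlap, as for 1.26% of all genes with FDG-increased higher, and FDG-increased was higher in 3 of 3 pairs. Here the log2 difference was 0.76 (SE 0.318). Its limma adjusted p was 1 without the block and 0.0210 with it, so Klf4 passed only with the block, as the 1 gene of 14 called beside 1.14% of all genes. Over its 15 alternatives the limma adjusted p ranged from 0.00104 to 1. Atoh1 stood at 27.5, 17.6 and 27.4 FPKM against 53.4, 47.4 and 25.5, with FDG-increased higher in 2 of 3 pairs and a difference of 0.74 (limma adjusted p of 1, and 0.402 with the block). Over the list 10 of 14 lay above 0, with a median of 0.08.

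Of 21 genes of mucin glycosylation, the building of the sugar chains of mucins, 19 were tested and 0 passed the adjusted limma threshold. Against sham ileum 18 of 19 lay above 0 beside 64.7% of all genes, with a median of 0.31 beside 0.13. An unadjusted limma p under 0.05 was found for 2 of 19, beside 7.84% of all genes. St6galnac1, which adds sialic acid to the first sugar of mucin chains, stood at 6.50, 10.4 and 9.24 FPKM in FDG-increased and 0.183, 3.25 and 4.59 in sham ileum, a log2 difference of 1.65 (SE 0.521, limma adjusted p of 0.522). Sham replicate 1 held the lowest value, and without it the difference was 0.97. B3gnt7, an enzyme that extends sugar chains, stood at 8.76, 15.1 and 11.9 FPKM against 5.18, 4.24 and 4.64, a difference of 1.16 (SE 0.259, limma adjusted p of 0.303). Within RYGB ileum B3gnt7 stood at 4.39, 6.77 and 7.15 FPKM in FDG-decreased and 14.7, 11.6 and 11.4 in FDG-increased ileum, again without overlap. Non-overlap with FDG-increased higher was seen for 10.7% of all genes against sham and for 1.26% within RYGB ileum. The log2 difference was 0.95 (SE 0.272), with a limma adjusted p of 1 and of 0.0560 with the block. St6galnac1 differed by 0.50 there, with FDG-increased higher in 3 of 3 pairs. Among FDG-increased against FDG-decreased samples, 13 of 19 lay above 0 with a median of 0.11, and with the block 5 of 19 had an unadjusted p under 0.05, all higher, beside 9.52% of all genes.

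**Figure D4:**
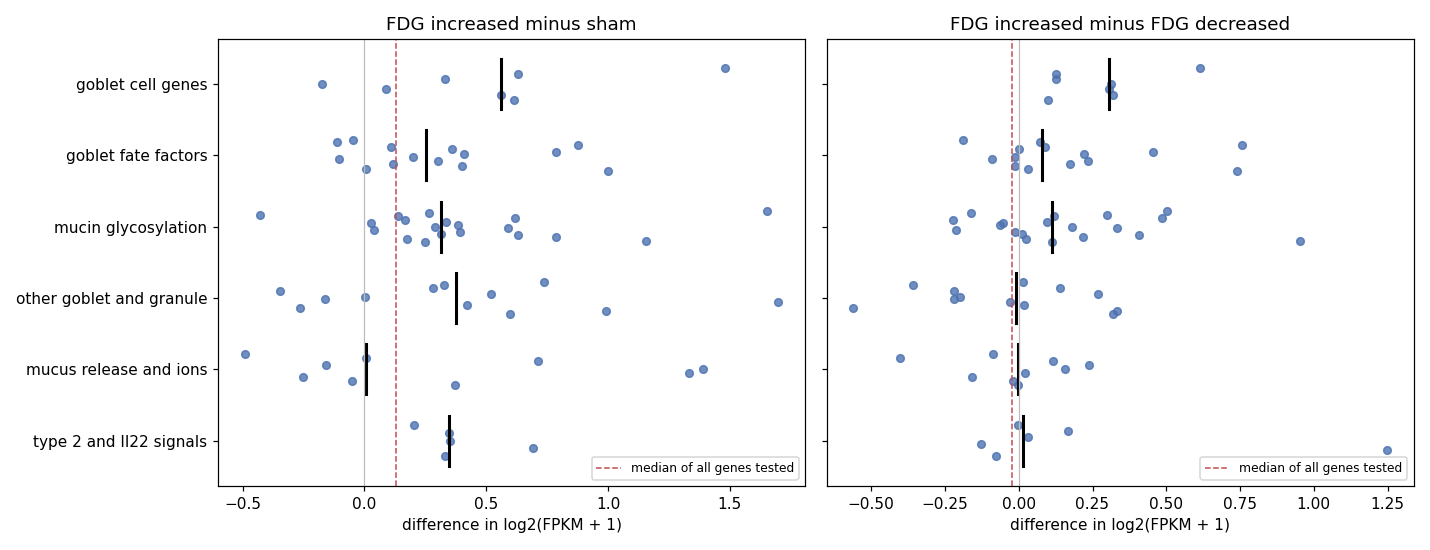
Differences in log2(FPKM + 1) of each tested gene of 6 lists, FDG increased minus sham on the left and FDG increased minus FDG decreased on the right, on separate scales. Points are genes, black bars list medians and the dashed line the median of all genes tested, 0.13 on the left and -0.02 on the right; the goblet cell genes have medians of 0.56 and 0.31.

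A list of 16 other genes of goblet cells and their granules gave 12 tested genes, with 0 called by limma in either table. Of these, 9 lay above 0 against sham ileum (median 0.37) and 6 in the RYGB table (median -0.01). At an unadjusted limma p under 0.05 the counts were 2 of 12 against sham, beside 7.84% of all genes, and 0 of 12 in the RYGB table, beside 1.02%. Guca2a, which encodes the peptide guanylin that regulates salt and water secretion, stood at 2549, 3372 and 3534 FPKM in FDG-increased and 917, 825 and 1170.3 in sham ileum, a log2 difference of 1.70 (SE 0.317, limma adjusted p of 0.183). With the pairs by RYGB table number as a block its limma adjusted p was 0.000506, and 0.0137 without the trend and robust variances. After RYGB it followed the library number, with 3256, 3329 and 688 FPKM in FDG-decreased and 3296, 3463 and 612 in FDG-increased ileum. The libraries numbered 3 were the low ones, opposite to Spink4. The FDG-increased one of them, which the sham table does not hold, lay below all sham values. Bcas1 averaged 42.4 ± 7.55 FPKM against 22.2 ± 11.3 in sham ileum (SD, n = 3 each), a log2 difference of 0.99 (limma adjusted p of 0.599). Between the RYGB groups the largest differences were -0.56 for Capn8, a calpain protease, which was lower in FDG-increased ileum in 3 of 3 pairs, and -0.36 for Tpsg1.

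Genes of mucus release, ion transport and mucin processing were listed as 11, with 9 tested. Against sham ileum 5 of 9 lay above 0 and the median was 0.01. Mep1b and Mep1a, the beta and alpha subunits of the brush border protease meprin, of which the beta form cuts Muc2 free from the epithelium, had the largest differences, 1.39 (limma adjusted p of 0.472) and 1.33 (limma adjusted p of 0.459). Mep1b stood at 396, 458 and 838 FPKM against 171, 187 and 262 in sham ileum, without overlap. Such non-overlap with FDG-increased higher was seen for 10.7% of all genes. FDG-increased library 3 of the RYGB table, on the scale of that table, held 168 FPKM of Mep1b and 63.1 of Mep1a. The lowest sham value of Mep1a was 90.8 FPKM. Within RYGB ileum 4 of 9 lay above 0, and the largest differences were -0.40 for the anion exchanger Slc26a6 and 0.24 for the chloride importer Slc12a2. By limma 0 of 9 were called in either table, and an unadjusted p under 0.05 was found for 2 of 9 against sham, beside 7.84% of all genes, and for 0 of 9 in the RYGB table, beside 1.02%.

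Signals that act on goblet cells were listed as 9, the type 2 cytokines and Il22 with their receptors. Against sham ileum 5 were tested, 5 lay above 0 (median 0.35) and 0 had an unadjusted limma p under 0.05. Il22ra1, a receptor subunit for Il22, differed by 0.69 and the alarmin Il33 by 0.35. Between the RYGB groups Il22, a cytokine of innate and T lymphocytes, was listed at 0.353, 0 and 0 FPKM in FDG-decreased and 0.367, 1.28 and 4.82 in FDG-increased ileum. The log2 difference was 1.25, at levels near the lower limit, and the highest Il22 value came from library 3, which was low in immune markers. Il22 reached the level filter only through FDG-increased ileum, with a mean of 2.15 FPKM against 0.118 in FDG-decreased ileum. Its difference is therefore given as a description and not counted. Il4r differed by 0.17, and by limma none of the tested signals other than Il22 was called. Of 9 transmembrane mucins 3 were measured and only Muc1 was tested, with differences of 0.27 against sham and 0.01 in the RYGB table. Of the mucins and trefoils typical of stomach and airway, Tff1 was listed at 0 throughout and Tff2 at 0.982 FPKM or less.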

How the data were processed

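Total RNA of rat ileum was sequenced after ribosomal RNA depletion with a stranded kit, per the labels' protocols. The authors deposited 2 tables of FPKM per gene and library, scaled separately, of 17145 rows each, of which 25 symbols turned into dates were left out. The submitters' processing notes name bcl2fastq 1.8.4, STAR 2.6.0a, Cufflinks 2.2.1, Cuffdiff, DESeq2 1.24.0 and the human build hg19, while the symbols are those of rat, and the role of each tool is not given in the sources used here. Low values gathered at no common step, so reads could not be recovered and no counting interval is given. Between 10332 and 10892 genes reached 1 FPKM per library.

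Samples were grouped by title. Genes whose table mean reached 1 FPKM (10801 in the sham table, 10739 in the RYGB table) were put on the log2(FPKM + 1) scale and compared within each table with limma 3.58.1 in R 4.3.3 (empirical Bayes, trend, robust variances, Benjamini-Hochberg over all genes, threshold 0.05), tested on simulated data. All differences are FDG-increased minus the other group. Deviations from the group mean correlated across genes between RYGB table libraries of one number (r of 0.845, 0.763 and 0.768), and the pairing rests on the numbers in the labels; pairs 1 and 2 also shared a sequencing lane. In the sham table the column numbers gave 0.350, -0.498 and -0.246. By the RYGB table numbers of the shared libraries the check gave 0.232 and 0.660, and 0.121 for the remaining FDG-increased library with sham replicate 3, a pair that no label numbers. Whether the sham libraries are paired is thus not settled. The fit without the block is the main one.

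Every goblet cell gene is named, and of each other list the genes called and the 2 with the largest absolute difference in each comparison. Marker lists are given as sums. The members and lists were chosen with earlier results of these data known. Alternatives were a pseudocount of 0.1, no filter, a median shift, quantile normalization, limma without trend and robust variances, the replicate block, leaving out each library, and lane 7 libraries alone. Added after seeing the data were the block by RYGB table numbers, the fits without both libraries numbered 3, and the blocked ones of these without trend and robust variances. Promoter windows came from RefSeq's GRCr8 table.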

Additional observations from a re-analysis of the deposited data

Results flagged for a closer look

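Over the 4 distinct FDG-increased libraries, on the scale of the sham table, Spink4 was 992.6 FPKM in FDG-increased library 3 of the RYGB table, apart from the other 3 by 0.873 of the whole range. Retnlb was 1.69 FPKM in the same library and listed at 0 in the other 3. With 3 values at 0 the gap is 1 times the range for any value above 0, so the rule says nothing about Retnlb. The critical share for 4 values is 0.829. For normally spread values chance passes it in about 5% of groups, for each gene looked at.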

How the results depend on the processing

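By limma 0 goblet cell genes were called under every setting run except 3 blocked fits chosen after seeing the data, which each called 1 of them, Zg16. Against sham, the replicate block by RYGB table numbers called 498 genes, and 85 with 0 goblet cell genes without trend and robust variances. In the RYGB table, the block without both libraries numbered 3 called 346 genes, and 193, Zg16 (0.81 on the log2 scale) again among them, without trend and robust variances; the same libraries without the block gave 0 genes. Zg16 kept its direction under all 15 alternatives against sham and all 15 in the RYGB table. Against sham, where 4 genes were called, pseudocount 0.1 gave 1, no filter 0, the median shift 1, quantile normalization 0, the replicate block by column number 39, and leaving out 1 library 0 (without FDG-increased 1 or 2 or sham 2) to 13 (without FDG-increased 3). In the RYGB table, where 0 were called, the replicate block gave 122, and leaving out 1 library 0 to 1. The planned blocked fits changed no call of a goblet cell gene and, of the genes named from the other gene lists in the RYGB table, only that of Klf4. Of the markers given as sums, the block there called 1 of 6 tested enterocyte markers, lower in FDG-increased ileum, beside 1.14% of all genes called. The upper intestine markers are not counted, since Lct and Gata4 reached the level filter only through FDG-decreased ileum. Against sham, the block by column number called 1 of 6 tested enteroendocrine markers, higher in FDG-increased ileum, among 39 of 10801 genes. With the block by RYGB table numbers, Zg16 (1.48), Atoh1 (1.00), St6galnac1 (1.65), B3gnt7 (1.16), Guca2a (1.70), Bcas1 (0.99), Mep1b (1.39) and Mep1a (1.33) passed against sham, and without trend and robust variances only Guca2a of these did. Without both libraries numbered 3 and with the block, Atoh1 (1.16), B3gnt7 (1.12) and Klf4 (0.81) also passed, with or without trend and robust variances.

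Differences changed sign as follows, with the cause not tested. Against sham, the median shift gave -0.041 for Fcgbp. Quantile normalization gave -0.13 for Clca1, -0.41 for Fcgbp, -0.058 for Tff3 and -0.039 for Spink4. Lane 7 libraries alone, 1 FDG-increased against 3 sham with the lone library assumed to vary like the others, gave 0.29 for Spdef and -0.15 for Il33. Leaving out 1 library gave -0.38 to 0.59 for Fcgbp, -0.41 to 0.22 for Spdef, -0.24 to 0.69 for Il33 and -0.017 to 0.50 for Muc1. In the RYGB table, leaving out 1 library gave -0.062 to 0.74 for Fcgbp, -0.082 to 0.34 for Tff3, -0.65 to 1.06 for Spink4, -0.10 to 0.36 for Agr2, -0.072 to 0.67 for Spdef, -0.10 to 0.14 for Muc1, -0.11 to 0.48 for Slc12a2 and -0.052 to 0.37 for Il4r. Without both libraries numbered 3, with or without the block, Tff3 was -0.074 and Muc1 -0.18. Il22 missed the level filter, and so has no value, in each fit without FDG-increased library 3 of the RYGB table. The number of libraries and the unknown depth limit the precision.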
